A study of Mus musculus with 6 samples.

Results

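Genes of the red blood cell lineage were followed in the whole testes of newborn mice, as 8 named genes: Hba-a1, Hbb-b1, Hbb-b2, Hbb-bt, Alas2, Slc4a1, Ahsp and Klf1. They were taken by name, as every non-control probe whose gene name in the array files was one of the 8. A probe was found for 7 of the 8 genes, 1 probe each, among 55681 distinct probes on the array. Hbb-bt is not a gene name in these files. The RefSeq table gives the accession of the probe named Hbb-b1 the current symbol Hbb-bt, so both names fall on 1 probe, which keeps the name Hbb-b1 here. All 7 probes were well above background on all 6 arrays and all 7 were among the 24569 genes tested.

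Each array held the RNA of 1 male animal at postnatal day 0, on a mixed FVB.129/Sv background, and nothing was pooled. There were 3 genotypes with 2 animals each. KO mice (called VSKO in the labels) were Vasa-cre with 1 deleted and 1 floxed Sin3a allele, and their germ cells lose both copies. HEMI mice were Vasa-cre with 1 deleted and 1 intact Sin3a allele, and WT mice were Vasa-cre with 2 intact alleles. All 3 genotypes carry the Cre, and its promoter is that of Ddx4 (Vasa or Mvh), a gene of germ cells. The labels place the loss of both Sin3a copies in germ cells. The genes described here are known for red blood cells and their precursors. KO and HEMI mice also carry 1 deleted allele, and its presence in blood cells was not analysed here.

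Red blood cells carry oxygen on haemoglobin, a tetramer of α-like and β-like globin chains that each hold a haem group. Erythroid precursors build it under the control of transcription factors such as GATA1, TAL1 and KLF1, make haem with an erythroid form of its first enzyme, and then lose the nucleus. The youngest circulating red cells, the reticulocytes, still hold globin mRNA. The testis is perfused with blood and is not a site of red cell formation, so RNA from a whole, unsorted testis can include RNA of circulating cells.

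The probes of 4 of these genes are shown because they tell what was measured. Each probe is 60 bases long and is given as the array design prints it, and positions are those of the design on mouse build mm9. The Hba-a1 probe lies at chr11:32183955-32184014 and lists RefSeq transcripts of both Hba-a1 and Hba-a2, so its signal cannot be given to 1 of these near-identical genes. The Alas2 probe lies at chrX:147004993-147005052. The Hbb-b2 and Ahsp probes carry no position in the array design.
Hba-a1 probe: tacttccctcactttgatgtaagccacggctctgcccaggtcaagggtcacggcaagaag
Hbb-b2 probe: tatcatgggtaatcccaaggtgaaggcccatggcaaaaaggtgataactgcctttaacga
Alas2 probe: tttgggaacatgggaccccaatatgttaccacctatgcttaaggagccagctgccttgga
Ahsp probe: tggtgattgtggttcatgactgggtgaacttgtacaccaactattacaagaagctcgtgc
The Hbb-b1 probe is placed at chr7:110961105-110961164, the Slc4a1 probe at chr11:102210256-102210315 and the Klf1 probe at chr8:87428881-87428940. The β-globin genes are also close copies of one another, and the mouse carries different sets of them in different strains (Hbb-b1 with Hbb-b2, or Hbb-bs with Hbb-bt). Which set these animals carried was not analysed here, and signal of 1 β-globin probe may include transcripts of another.

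The promoters of the members that the RefSeq promoter table holds are shown because erythroid promoters are known for GATA and CACCC motifs, the sites of GATA1 and KLF1. Each line gives the 250 bases before the transcript start on build GRCm38.p6, 5′ to 3′ in the direction of transcription. Capitals mark matches to 4 motifs on either strand, so a capital run can also be the reverse complement of its motif. The first motif is GATAA, the core of a site that GATA1 is known to bind. The second motif is CACCC, the core of a site known for KLF1. The other two are general promoter elements, the CCAAT box and the start of a TATA box, searched as TATAA. The windows lie at chr11:32283422-32283671 (Hba-a1), chr7:103813924-103814173 (Hbb-bt, the current RefSeq name of the Hbb-b1 probe), chrX:150547167-150547416 (Alas2) and chr8:84901732-84901981 (Klf1).
Hba-a1: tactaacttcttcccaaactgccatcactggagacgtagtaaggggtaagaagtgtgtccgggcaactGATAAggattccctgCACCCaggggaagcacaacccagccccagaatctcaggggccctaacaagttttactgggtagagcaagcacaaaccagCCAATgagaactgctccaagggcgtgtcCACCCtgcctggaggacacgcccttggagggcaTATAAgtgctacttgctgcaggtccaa
Hbb-bt: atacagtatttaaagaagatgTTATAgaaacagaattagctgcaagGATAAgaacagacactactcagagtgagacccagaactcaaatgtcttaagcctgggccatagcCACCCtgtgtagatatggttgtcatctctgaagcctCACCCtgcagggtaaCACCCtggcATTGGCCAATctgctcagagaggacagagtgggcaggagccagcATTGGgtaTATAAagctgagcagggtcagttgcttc
Alas2: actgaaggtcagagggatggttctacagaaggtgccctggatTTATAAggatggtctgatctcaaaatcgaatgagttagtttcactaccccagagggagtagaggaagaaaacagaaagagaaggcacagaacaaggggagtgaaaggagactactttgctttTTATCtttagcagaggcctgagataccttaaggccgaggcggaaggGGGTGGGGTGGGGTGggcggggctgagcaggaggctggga
Klf1: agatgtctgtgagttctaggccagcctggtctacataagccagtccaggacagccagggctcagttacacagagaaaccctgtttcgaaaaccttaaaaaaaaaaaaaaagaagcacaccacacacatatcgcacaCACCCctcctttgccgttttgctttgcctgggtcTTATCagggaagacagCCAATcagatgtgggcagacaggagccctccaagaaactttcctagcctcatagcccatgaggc
The GATAA letters stood in all 4 windows, at -182 in Hba-a1, -204 in Hbb-bt, -86 in Alas2 and -80 in Klf1, counted back from the transcript start. CACCC was also in all 4, with 2 matches in Hba-a1, 3 in Hbb-bt, 3 in Alas2 and 1 in Klf1. CCAAT was in Hba-a1, Hbb-bt and Klf1. TATAA stood at -27 in Hba-a1 and at -229 and -28 in Hbb-bt, and in Alas2 its matches on both strands overlap at -208 and -207. Of 32851 RefSeq promoter windows of the same length, 22.6% held the GATA motif on either strand and 52.0% held the CACCC motif. The CCAAT box was in 33.8% of these windows and the TATA motif in 22.8%, so each is common. The Hba-a1 and Hba-a2 windows share an unbroken run of 247 bases, whereas the longest run shared by Hbb-bt and Hbb-bs is 14 bases. A match describes the letters of the window and no binding was measured.

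The 6 arrays lay on 1 slide with 1 scan time. The 75th percentile of their processed signal lay between 652 and 857, and 59.2% to 64.5% of their non-control spots were well above background, with 0 saturated spots. Signals are given as log2 of the processed signal minus the 75th percentile of the array, so that 0 is the 75th percentile and a step of 1 is a doubling. Levels of different probes are not compared with each other on this scale. Sin3a, the targeted gene, had 0.61 and 0.38 in KO testes, 0.89 and 0.89 in HEMI testes and 1.09 and 1.11 in WT testes. It was lowest in both KO animals, but whether its probe lies in the deleted part was not analysed here. KO and HEMI filled the first row of the slide and WT the second row, so slide row and genotype cannot be told apart in comparisons with WT.

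Across the members, 1 animal stood apart: KO animal 2 gave the highest signal of all 6 arrays for 6 of the 7 members, against 18.3% of all genes. The other KO animal lay close to the HEMI and WT animals for the globins and Alas2. No member passed the test in any comparison of genotypes (limma with Benjamini-Hochberg adjustment). In RNA of a whole tissue, more cells of a type and more RNA per cell cannot be told apart.

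Hba-a1 encodes the α chain of adult haemoglobin. Its log2 signal was 6.74 and 8.32 in the 2 KO animals, 6.52 and 6.60 in the 2 HEMI animals and 6.79 and 6.81 in the 2 WT animals. KO animal 2 was 2.99-fold above KO animal 1, while the other 5 arrays spanned 0.28 on the log2 scale and KO animal 1 lay below both WT animals. As group means, Hba-a1 had 7.53 ± 1.12 in KO, 6.56 ± 0.05 in HEMI and 6.80 ± 0.01 in WT testes (SD, n = 2 each).

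Hbb-b1 encodes an adult β chain. Its log2 signal was 6.32 and 7.73 in KO testes, 6.06 and 6.22 in HEMI testes and 6.16 and 6.18 in WT testes. KO animal 2 was again the highest, 2.65-fold above the next array, which was KO animal 1. The KO animals lay above all HEMI and WT animals, and the HEMI and WT ranges overlapped.

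Hbb-b2 encodes the minor adult β chain of strains that carry Hbb-b1. It had 5.59 and 7.17 in KO testes, 5.35 and 5.56 in HEMI testes and 5.55 and 5.50 in WT testes. The 5 arrays other than KO animal 2 lay within 0.23 of each other, and KO animal 2 was 2.99-fold above the highest of them.

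Alas2 encodes the erythroid form of 5-aminolevulinate synthase, the first and rate-limiting enzyme of haem synthesis. Its signal was 0.39 and 1.82 in KO testes, 0.08 and 0.35 in HEMI testes and 0.51 and 0.60 in WT testes. KO animal 2 was 2.33-fold above the highest other array, and KO animal 1 lay between the HEMI and WT animals.

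Slc4a1 encodes band 3, the anion exchanger of the red cell membrane. Its signal was -2.95 and -1.73 in KO testes, -3.07 and -2.68 in HEMI testes and -2.28 and -2.31 in WT testes. The KO animals lay on both sides of the WT pair, 2.34-fold apart, and both HEMI animals were below both WT animals.

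Ahsp encodes the α haemoglobin stabilising protein, a chaperone of free α chains. Its signal was -2.92 and -0.60 in KO testes, -2.76 and -1.77 in HEMI testes and -1.48 and -1.46 in WT testes. The KO animals were 4.997-fold apart, the widest gap of any member, and they were the highest and the lowest of the 6 arrays. The WT animals differed by 1.01-fold.

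Klf1 encodes an erythroid transcription factor that acts on CACCC sites of the adult β-globin promoter. Its signal was -4.15 and -4.16 in KO testes, -4.30 and -3.88 in HEMI testes and -3.80 and -3.22 in WT testes. Here KO animal 2 did not stand out, the KO animals differed by 0.01, and the highest array was WT animal 2. Both KO animals and both HEMI animals lay below both WT animals.

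**Figure D1:**
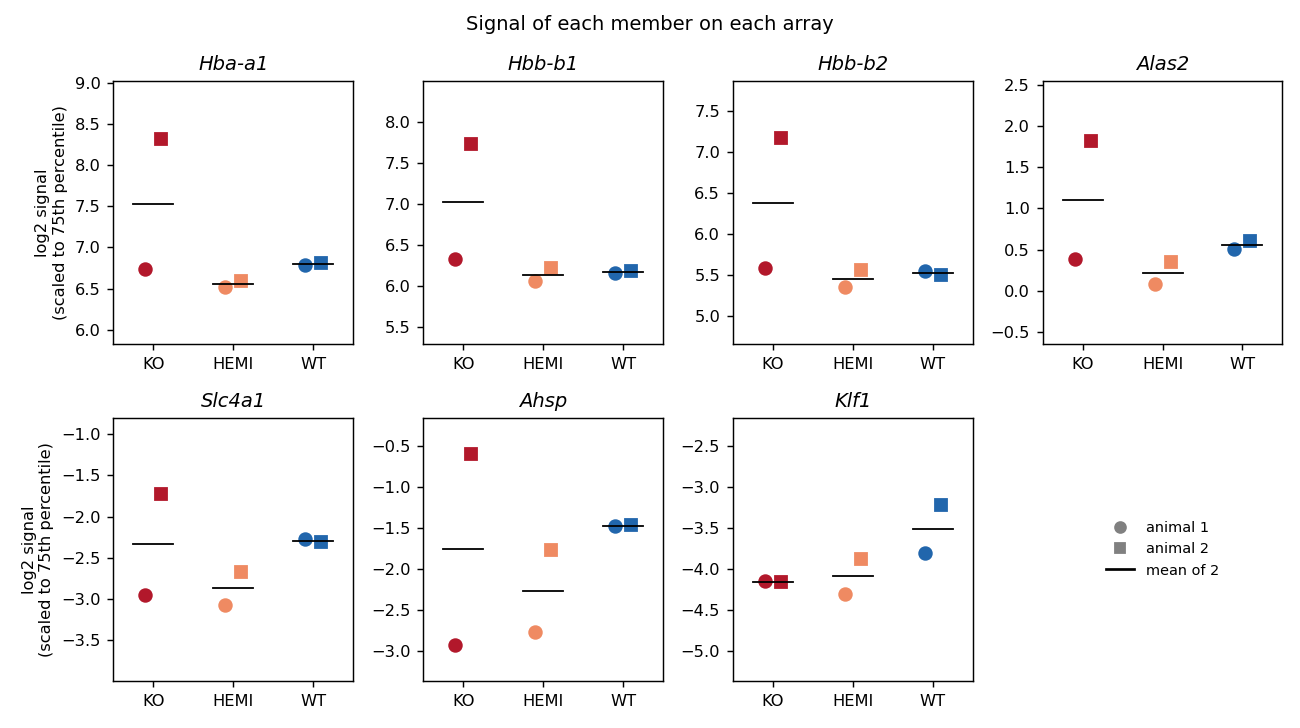
Log2 signal of each member on each of the 6 arrays, scaled to the 75th percentile of the array (y axis, the same height in log2 units in every panel), for KO, HEMI and WT testes (x axis). Circles are animal 1, squares animal 2 and lines the mean of 2 animals. KO animal 2 is the highest point in 6 of 7 panels, with Klf1 the exception.

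The spread between the 2 animals of a genotype shows the same pattern as a number. In KO testes, animal 2 minus animal 1 had a median of 1.43 over the 7 members, and 6 of the 7 exceeded 1, that is a doubling. Over all genes that difference had a median of 0.01, its 5th and 95th percentiles were -0.72 and 0.72, and 2.76% of genes exceeded 1. The share of all genes with a KO gap at least as large was 0.537% for Ahsp, 1.22% for Hbb-b2, 1.23% for Hba-a1, 1.46% for Alas2, 1.49% for Hbb-b1 and 1.93% for Slc4a1. For Klf1 it was 53.3%.

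In the other genotypes 6 of the 7 members varied less between animals, and Klf1 varied more. In HEMI testes animal 2 minus animal 1 was positive for all 7 members, with a median of 0.28, and Ahsp had the widest gap at 0.99. In WT testes the median was 0.01, and the largest gap was 0.58 for Klf1. The error that the scanner software gives for a spot, per the file headers, was 10% to 14.1% of its signal for these probes. KO animal 2 had a 75th percentile of 694 and 62.4% of its spots well above background, both within the range of the other 5 arrays.

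**Figure D2:**
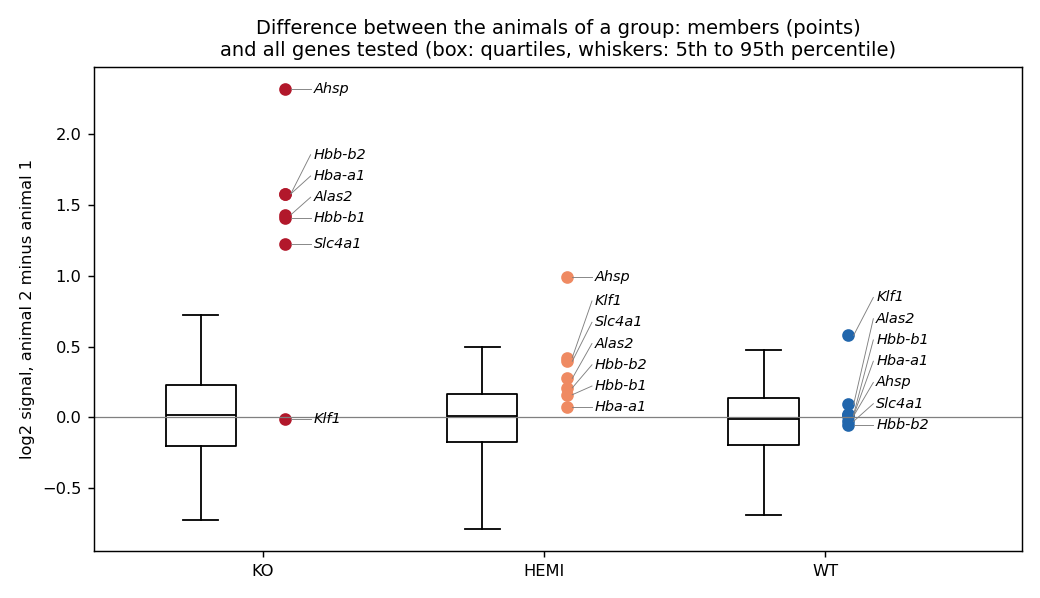
Log2 signal of animal 2 minus animal 1 (y axis) within KO, HEMI and WT testes (x axis). Points are the 7 members, boxes the quartiles and whiskers the 5th to 95th percentile of all genes tested. In KO testes 6 members lie above the whisker and Klf1 lies at -0.01.

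The β-globin probes and Alas2 were higher in KO animal 2 than in KO animal 1 by about as much as Hba-a1 was. Relative to Hba-a1 on the same array, Hbb-b1 varied over 0.25, Hbb-b2 over 0.27 and Alas2 over 0.30 log2 units across the 6 arrays, against 1.80 for Hba-a1 itself. Slc4a1 varied over 0.98, Ahsp over 1.40 and Klf1 over 2.46. Hba-a1 itself spanned 0.28 over the 5 arrays other than KO animal 2. The 6-array ranges of Hbb-b1 (0.25), Hbb-b2 (0.27) and Alas2 (0.30) lay close to that. Across 6 arrays that share a slide, the Pearson correlation of a member with the mean of the others was 0.97 for Alas2, 0.94 for Slc4a1, 0.93 for Hba-a1, 0.90 for Hbb-b2, 0.87 for Hbb-b1 and 0.85 for Ahsp. For Klf1 it was -0.02. Over the 5 arrays without KO animal 2 it was 0.96 for Slc4a1, 0.90 for Alas2, 0.87 for Klf1 and 0.81 for Ahsp, against 0.72 for Hba-a1, 0.45 for Hbb-b2 and 0.10 for Hbb-b1. Leaving out KO animal 2 thus lowered the correlation most for Hbb-b1 and Hbb-b2 and less for Hba-a1, and raised it most for Klf1. Over those 5 arrays the 3 globin probes spanned only 0.23 to 0.28.

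KO testes were first compared with WT testes, the comparison in which germ cells lose both Sin3a copies. The 3 globin probes averaged higher in KO testes, but the KO animals were far apart and the difference did not pass the test. The log2 difference, KO minus WT, was 0.73 for Hba-a1 (SE 0.50, adjusted p = 0.560), and 0.86 for Hbb-b1 (SE 0.45, adjusted p = 0.459). For Hbb-b2 it was 0.85 (SE 0.50, adjusted p = 0.509), and for Alas2 0.55 (SE 0.46, adjusted p = 0.637). Slc4a1 and Ahsp had differences near or below 0, at -0.05 (SE 0.41, adjusted p = 0.971) and -0.29 (SE 0.79, adjusted p = 0.898). Klf1 had -0.64 (SE 0.25), with an unadjusted p of 0.0457 and an adjusted p of 0.328. Thus 0 of 7 members were called, where 0.977% of all genes were called in this comparison (0.346% higher and 0.631% lower in KO testes). At an unadjusted p under 0.05 there was 1 of 7 members, Klf1, and 14.7% of all genes, a share near that of the members. The KO and WT animals did not overlap for 3 members, with Hbb-b1 and Hbb-b2 higher and Klf1 lower in both KO animals. Of all genes, 45.7% did not overlap in this comparison.

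HEMI testes were then compared with WT testes. All 7 members averaged lower in HEMI testes, with a median difference of -0.34, against -0.02 over all genes. The differences, HEMI minus WT, were smallest in size for the β-globins, at -0.03 for Hbb-b1 (SE 0.45, adjusted p = 0.981) and -0.07 for Hbb-b2 (SE 0.50, adjusted p = 0.965). Both turned positive with quantile scaling of the arrays, at 0.08 and 0.05. Hba-a1 had -0.24 (SE 0.50, adjusted p = 0.866) and Alas2 -0.34 (SE 0.46, adjusted p = 0.793). Slc4a1, Klf1 and Ahsp had larger differences, at -0.58 (SE 0.41, adjusted p = 0.618), -0.58 (SE 0.25, adjusted p = 0.431) and -0.80 (SE 0.79, adjusted p = 0.712). No member was called, where 0.118% of all genes were (0.0326% higher and 0.0855% lower in HEMI testes). At an unadjusted p under 0.05 there were 0 of 7 members and 12.4% of all genes. The 2 HEMI animals both lay below the 2 WT animals for 5 members, Hba-a1, Alas2, Slc4a1, Ahsp and Klf1. Of all genes, 28.4% were lower in both HEMI animals in this way, and 49.3% did not overlap in either direction.

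KO and HEMI testes shared the slide row and differ in the second Sin3a allele. Here 6 of 7 members averaged higher in KO testes, with a median difference of 0.89. KO minus HEMI was 0.97 for Hba-a1 (SE 0.50, adjusted p = 0.837), 0.89 for Hbb-b1 (SE 0.45, adjusted p = 0.829) and 0.92 for Hbb-b2 (SE 0.50, adjusted p = 0.868). Alas2 had 0.89 (SE 0.46, adjusted p = 0.846), Slc4a1 0.54 (SE 0.41, adjusted p = 0.978) and Ahsp 0.51 (SE 0.79, adjusted p = 0.999). Klf1 had -0.06 (SE 0.25, adjusted p = 0.999). Again 0 of 7 members were called, where 0.142% of all genes were (0.102% higher and 0.0407% lower in KO testes). At an unadjusted p under 0.05 there were 0 of 7 members and 7.69% of all genes. Both KO animals lay above both HEMI animals for Hba-a1, Hbb-b1, Hbb-b2 and Alas2. The same held for 18.8% of all genes, and 32.9% did not overlap in either direction. The 3 comparisons share arrays and are not independent of each other.

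Leaving out KO animal 2 moved every member except Klf1. Without it, KO minus WT was -0.06 for Hba-a1 (SE 0.13), 0.15 for Hbb-b1 (SE 0.15), 0.06 for Hbb-b2 (SE 0.16) and -0.17 for Alas2 (SE 0.18). Slc4a1 then had -0.66 (SE 0.21, adjusted p = 0.289) and Ahsp -1.45 (SE 0.45, adjusted p = 0.276), while Klf1 stayed at -0.64. The median over the members was -0.17 without KO animal 2, against 0.55 with all arrays. KO minus HEMI had a median of 0.13 without this animal, against 0.89 with it. Leaving out KO animal 1 in its place gave a KO minus WT of 1.52 for Hba-a1 (SE 0.13, adjusted p = 0.0658), the closest of the members to the threshold in that comparison, and a median of 1.27. KO minus HEMI was then 1.76 for Hba-a1 (SE 0.13, adjusted p = 0.0649). In these fits the single KO animal left is assumed to vary as the HEMI and WT animals do. Which of the 2 KO animals is the more typical of the genotype cannot be told apart with 2 animals.

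**Figure D3:**
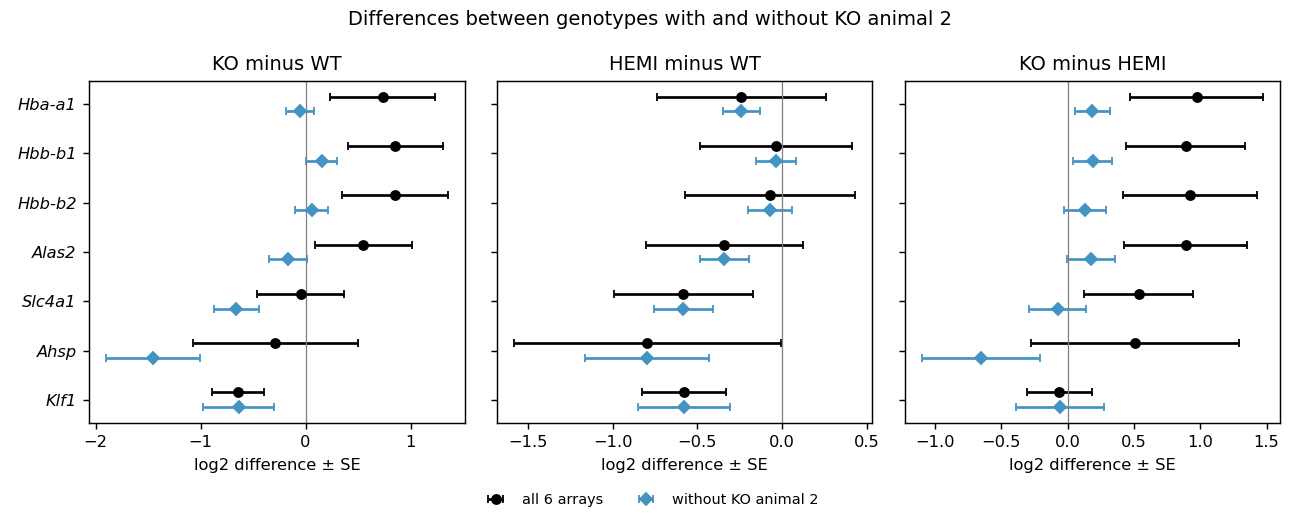
Log2 difference of each member (rows) for KO minus WT, HEMI minus WT and KO minus HEMI (panels), with the SE of the limma fit as bars. Black circles use all 6 arrays and blue diamonds leave out KO animal 2. Without that animal the globins and Alas2 lie between -0.17 and 0.19 in both comparisons of KO testes, and Ahsp at -1.45 for KO minus WT.

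Other globin genes were measured by separate probes. Hba-a2, the second adult α gene, had 8.02 and 8.87 in KO testes, 7.88 and 7.92 in HEMI testes and 8.16 and 8.14 in WT testes. Hbb-bs, an adult β gene whose probe is named Beta-s in the files, had 2.85 and 4.73 in KO testes, 2.80 and 2.90 in HEMI testes and 2.84 and 2.88 in WT testes. KO animal 2 was the highest array for both. The Hbb-bs and Hbb-b2 probes list shared predicted transcripts, so these 2 signals are not independent. The Hba-a1 probe lists transcripts of Hba-a2 too, so the Hba-a1 and Hba-a2 signals may not be independent either. KO animal 2 minus KO animal 1 was 0.86 for Hba-a2, against 1.58 for Hba-a1.

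Hbb-y, an embryonic β-like globin, had -4.49 and -2.35 in KO testes, -6.21 and -5.80 in HEMI testes and -3.19 and -4.77 in WT testes. It was not well above background on either HEMI array. The limit on each HEMI array was the higher of the lowest signal well above background there and the probe's own signal. Against it, Hbb-y was at least 5.06-fold higher in KO than in HEMI testes (adjusted p = 0.502). It was at least 3.44-fold lower in HEMI than in WT testes (adjusted p = 0.420). Both bounds rest on 1 animal: from KO animal 1 alone the first was 2.41-fold, and from WT animal 2 alone the second was 1.99-fold. A second Hbb-y probe was well above background on 1 KO array, 0 HEMI arrays and 1 WT array.

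Hba-x, the embryonic α-like globin, was well above background on the array of KO animal 2 and on no other. Hbq1a, a θ globin, was at least 2.69-fold higher in KO than in HEMI testes (adjusted p = 0.915), with -5.45 and -3.30 in KO testes, -6.00 and -6.11 in HEMI testes and -4.70 and -7.14 in WT testes. From KO animal 1 alone the bound was 1.28-fold. Its copy Hbq1b had -4.74 and -3.81 in KO testes, -5.03 and -4.58 in HEMI testes and -4.25 and -5.05 in WT testes. Hbb-bh1, another embryonic β-like globin, had -4.61 and -4.59 in KO testes, -4.63 and -4.58 in HEMI testes and -4.81 and -5.32 in WT testes, and did not set KO animal 2 apart. Of the 6 tested globins other than the members, 5 were highest in KO animal 2 and 0 were called. Of all genes, 18.3% were highest in KO animal 2. The shares of all genes called were 0.977% for KO minus WT, 0.118% for HEMI minus WT and 0.142% for KO minus HEMI.

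The rest of the erythroid programme was followed through 5 further gene lists. Together with the other globins they held 64 tested genes, none of which was called by limma in any comparison. For these and the lists below, the shares of all genes called were likewise 0.977%, 0.118% and 0.142% in the 3 comparisons. At an unadjusted p under 0.05 there were 13 of 64 for KO minus WT, 8 for HEMI minus WT and 8 for KO minus HEMI, against 14.7%, 12.4% and 7.69% of all genes. KO animal 2 gave the highest signal for 15 of the 64, 5 of them globins, against 18.3% of all genes. Gata1, Tal1 and Fech are named for their known roles, after their values were seen. In KO animal 2 minus KO animal 1, 6 of the 64 exceeded 1, 3 of them globins, and 1 was under -1. Of all genes, 2.76% exceeded 1.

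All 12 erythroid transcription factors were tested and 0 of 12 were called. Their KO gap had a median of -0.11, it lay between -0.53 and 0.51, and none was highest in KO animal 2, against 18.3% of all genes. Gata1, the factor of the GATA sites, had -0.89 and -1.21 in KO testes, -0.74 and -0.78 in HEMI testes and -0.997 and -0.975 in WT testes. Tal1, which forms a complex with GATA1, had -2.12 and -2.64 in KO testes, -2.65 and -2.05 in HEMI testes and -2.18 and -2.27 in WT testes. For both, KO animal 2 lay below KO animal 1, as Klf1 did by 0.01. Gata1 is also expressed in Sertoli cells. The 3 genes of this list with the highest mean signal were Zfpm1, Cbfa2t3 and Ldb1, and their KO minus WT differences were 0.37, -0.20 and 0.05. These are cofactors that other cell types also express.

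The haem synthesis enzymes downstream of Alas2, with its ubiquitous paralogue Alas1, had a median KO gap of 0.12 over 8 tested genes, and 0 were called. Alas1, the first enzyme in other tissues, had 4.46 and 4.62 in KO testes, 3.998 and 4.16 in HEMI testes and 5.38 and 5.65 in WT testes. Its groups did not overlap. Of all genes, 45.7% did not overlap for KO and WT, 49.3% for HEMI and WT and 32.9% for KO and HEMI. For Alas1, KO minus WT was -0.98 (SE 0.16, adjusted p = 0.0723) and HEMI minus WT -1.44 (SE 0.16, adjusted p = 0.0664). Fech, which puts iron into the haem ring, had 2.67 and 2.76 in KO testes, 2.45 and 2.52 in HEMI testes and 2.48 and 2.69 in WT testes. Urod and Alad, which act earlier in the pathway, had KO minus WT differences of 0.42 (SE 0.16, adjusted p = 0.320) and -0.40 (SE 0.24, adjusted p = 0.505). Within haem synthesis, Alas2 had a KO gap above 1 and 0 of the 8 other genes did.

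Of 16 genes of the red cell membrane and skeleton, 12 were tested and 0 were called, with a median KO gap of 0.19. The blood group genes Rhag and Kel were not well above background on any array. Epb42, a partner of band 3, was well above background on 1 array, WT animal 2. The 3 tested genes with the highest mean were Epb41, Gypc and Aqp1, none of which is limited to red cells, and their KO minus WT differences were 0.18, -0.27 and -0.08.

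The list of red cell enzymes and late maturation genes had 15 of 18 genes tested, 0 called and a median KO gap of 0.17. A gap above 1 was seen for 3 of the 15, of which Isg20 and Car2 are given here, named after their values were seen. Isg20 had -1.67 and 0.01 in KO testes, -1.39 and -1.21 in HEMI testes and -1.26 and -1.23 in WT testes. KO animal 2 was the highest array for Isg20 and the other 5 arrays lay close together, as for the globins. Car2, a carbonic anhydrase, had -2.81 and -1.69 in KO testes, -1.51 and -2.15 in HEMI testes and -2.55 and -2.58 in WT testes, and was highest in HEMI animal 1. Prdx2, Bnip3l and Mkrn1, the 3 with the highest mean, had KO minus WT differences of -0.17, 0.16 and 0.56 (SE 0.13, adjusted p = 0.154).

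Of the 12 genes of iron uptake and erythropoietin signalling, 11 were tested under the list's names, 0 were called, and the median KO gap was -0.06. Slc25a37, mitoferrin 1, which brings iron into the mitochondrion of red cell precursors, had 0.68 and 1.48 in KO testes, 0.49 and 0.70 in HEMI testes and 0.47 and 0.56 in WT testes. Tfrc, the transferrin receptor, ran the other way, with -0.07 and -1.25 in KO testes, -0.92 and -0.67 in HEMI testes and -0.69 and -0.67 in WT testes. These 2 were also named after their values were seen. The 3 with the highest mean were Abcb10, Stat5b and Hmox1. Their KO minus WT differences were 0.04, 0.02 and -1.05 (SE 0.32, adjusted p = 0.242 for Hmox1, the haem-degrading oxygenase).

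**Figure D4:**
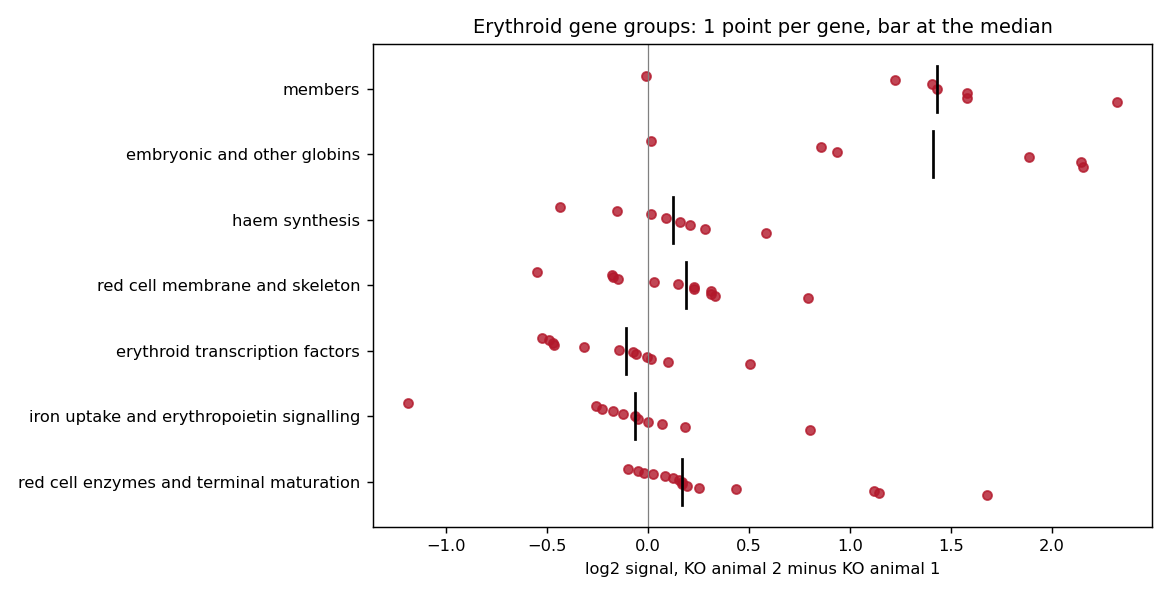
Log2 signal of KO animal 2 minus KO animal 1 (x axis) for the members and 6 erythroid gene lists (rows), with 1 point per tested gene and a bar at the median. The medians of the members and of the other globins are 1.43 and 1.41, and those of the other 5 lists lie between -0.11 and 0.19.

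Markers of other blood cells and of the testis were read on the same arrays. The platelet and megakaryocyte list had 7 of 10 genes tested and 0 called. Pf4, a platelet chemokine, had 0.14 and 2.60 in KO testes, 3.02 and 1.36 in HEMI testes and 1.04 and 1.13 in WT testes, so KO animal 2 was above KO animal 1 but HEMI animal 1 was the highest. Itgb3, an integrin subunit of platelets, had a KO minus WT difference of 0.39. The macrophage list had 12 of 12 genes tested and 0 called. Its median centred signal was -0.14 and 0.35 in KO testes, 0.58 and -0.66 in HEMI testes and 0.22 and -0.08 in WT testes, so it was highest in HEMI animal 1 and did not follow the members.

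The neutrophil and myeloid granule list had 12 of 12 genes tested, and 2 were called higher in KO than in WT testes. Of all genes, 0.346% were called higher in this comparison. S100a9 rose by 2.09 (SE 0.18, adjusted p = 0.0276) and S100a8 by 2.00 (SE 0.17, adjusted p = 0.0276). S100a9 had 3.87 and 4.0003 in KO testes, 2.27 and 1.82 in HEMI testes and 1.82 and 1.88 in WT testes. Both KO animals were high, including the one whose globin signal was not. With either WT animal left out, 0 genes were called for KO minus WT, these 2 included. The list's median centred signal was 0.45 and 0.60 in KO testes, -0.21 and -0.57 in HEMI testes and -0.42 and -0.34 in WT testes.

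Lymphocyte genes had 7 of 13 tested and 0 called, and endothelial genes 11 of 11 tested and 0 called. The median KO gap was 0.16 for lymphocyte genes and -0.30 for endothelial genes. For the testis itself, 8 of 8 germ cell genes and 8 of 8 Sertoli cell genes were tested and 0 were called, with median KO gaps of -0.17 and -0.20. Of 8 fetal Leydig cell genes, 7 were tested, and Cyp17a1, a steroid synthesis enzyme, fell in KO testes relative to WT testes by 1.40 (SE 0.16, adjusted p = 0.0423), a call that was likewise lost with either WT animal left out. Of all genes, 0.631% were called lower in KO than in WT testes. Over the 6 arrays the germ cell gene Ddx4 ran from 1.73 to 2.31 and Wt1, a Sertoli cell gene, from 4.87 to 5.31. The part of these cell types in the members' signal was not tested.

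The 10 other genes whose pattern was most like the members' mean were taken from 3748 genes that were well above background on all 6 arrays and had an SD of at least 0.3. Their Pearson correlations over 6 arrays ran from 0.992 for Otop1 to 0.964 for Slc6a20a. Those between them included Sftpd (surfactant protein D), Pdk4 (a pyruvate dehydrogenase kinase), Myh15, Tert (the telomerase protein), Hba-a2, Ftdc2 and Usp17ld, and none of the 10 was called in any comparison. Otop1, a proton channel, had -4.12 and -1.99 in KO testes, -4.26 and -3.93 in HEMI testes and -3.76 and -3.53 in WT testes. Slc6a20a, an amino acid transporter, had -0.58 and 1.54 in KO testes, -0.64 and -0.54 in HEMI testes and -0.19 and -0.33 in WT testes. Each of the 10 was highest in KO animal 2, by 0.51 to 1.87 above the next array. The members' mean is itself highest there, so this follows from how the 10 were chosen. Hba-a2 is the globin among them. Otop1 and Sftpd each had another, dimmer probe, on which KO animal 2 exceeded KO animal 1 by 0.42 and 0.83, against 2.12 and 2.14 on the first.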

How the data were processed

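RNA of whole testes of 6 newborn mice (100 ng each) was labelled with Cy3 and hybridised to 1-colour Agilent arrays, per the labels' protocols. Per the file headers, the deposited processed signal is a linear intensity, corrected for background and for trends across each array, from Feature Extraction 10.7.3.1 (8.5.1.1 per the submitters' processing notes). The deposited files also hold other 0 or 1 flags per spot (well above background, outlier, saturated). The authors' series table is an intensity too, equal to the processed signal over the array median within 0.00105%.

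Outlier spots were dropped, log2 signals were shifted so that the 75th percentile of non-control spots was 0 on each array, and probes well above background on both arrays of a genotype were kept (34367). The probe with the highest mean stood for a gene. Symbols were updated through RefSeq GRCm38.p6 for 26762 probes by accession, 101 by another accession and 3752 by symbol, and 25066 kept their name. One limma 3.58.1 model (R 4.3.3) covered all 6 arrays with a mean for each genotype (3 residual and 2.25 prior degrees of freedom, Benjamini-Hochberg adjustment over 24569 genes and a threshold of 0.05). The number of arrays limits the precision, and p-values set a difference between genotype means against the spread between these animals. In simulated data for KO minus WT over 24569 genes, 200 genes were changed and each gene kept the spread estimated from these arrays. Of the changed genes, 0% were recovered at a log2 change of 1, 73.7% at 2 and 85.9% at 3. Recovery depends on how many genes change and on the spread, so these rates need not hold for the real comparison.

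The members and the 14 gene lists were chosen with earlier results of these data known. Named were all members, called genes and the 3 with the highest mean of each list, and the 10 most similar genes, besides genes said to be named after their values were seen; a few genes that this rule takes are not reported here. For each comparison 18 alternatives were run, covering scaling, background correction, filter, probe choice, model, replicate block and left-out arrays.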

Additional observations from a re-analysis of the deposited data

How the results depend on the processing

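No member was called under any of the 18 alternatives in any comparison, and of 378 member differences 364 kept their sign. Many of these could not reverse. The alternatives of filter, probe choice, intensity trend, array weights, replicate block and only 4 arrays left each member's difference unchanged. The same holds where the animal left out was not in the comparison. The count of kept signs is thus not a measure of robustness. The 14 that reversed were small or rested on 1 animal. With 1 animal left out at a time, KO minus WT lay between -0.055 and 1.52 for Hba-a1, -0.17 and 1.27 for Alas2, -0.66 and 0.57 for Slc4a1 and -1.45 and 0.87 for Ahsp, the lower value without KO animal 2 and the upper without KO animal 1. KO minus HEMI lay between -0.076 and 1.15 for Slc4a1 and -0.65 and 1.67 for Ahsp in the same way, and between -0.28 and 0.15 for Klf1 (upper without HEMI animal 2). HEMI minus WT lay between -0.11 and 0.046 for Hbb-b1 and -0.17 and 0.034 for Hbb-b2 (upper without HEMI animal 1). It was also positive for Hbb-b1 with median scaling and with the series values (0.0048), with normexp background (0.0049) and with quantile scaling (0.081), and for Hbb-b2 with quantile scaling (0.050). The members' median moved between -0.17 and 1.27 for KO minus WT and between 0.13 and 1.61 for KO minus HEMI as single animals were left out. The counts of genes called moved more. For KO minus WT (240) the count was 12 without the filter on dim probes, 148 with array weights, 42 with only the 4 arrays of the comparison and 0 to 69 with 1 animal left out. For HEMI minus WT (29) it was 55 with median scaling or the series values, 132 with normexp, 0 without the filter, 68 with probes above background on all 6 arrays, 130 with an intensity trend, 95 with array weights, 4 with only 4 arrays and 0 to 8 with 1 animal left out. For KO minus HEMI (35) it was 75 with median scaling or the series values, 17 with quantile scaling, 5 without the filter, 15 above background on all 6 arrays, 0 with only 4 arrays and 0 to 41 with 1 animal left out. The cause was not tested, beyond the fewer samples in the last kinds. Animals of 1 replicate number did not deviate together (correlations of -0.04, -0.03 and -0.01 across genes), and with the replicate block the counts were 19, 0 and 0 genes for KO minus WT, HEMI minus WT and KO minus HEMI. Dim probes such as Klf1 and the embryonic globins lie nearest to the background.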
